A study of Mus musculus with 17 samples.

Results

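CEBPB (C/EBPβ) occupied 4210 sites in all 3 states in which it was profiled in mouse bone marrow-derived macrophages, and these 3-state sites are described here. They were selected on the CEBPB peak lists themselves: a peak of the list from cells given IFNg for 4 h was a member when it overlapped, by at least 1 bp, both a peak of the IFNg+IL4 list and a peak of the untreated list. The 4210 members were 19.6% of the 21499 CEBPB IFNg peaks (exact 95% interval 19.1 to 20.1%). The cells were primary macrophages, labelled wild type (wt) for CEBPB, JUNB, IRF1 and MYC and with no genotype in the titles for STAT6 and the input, grown from C57BL/6 marrow in L929-conditioned medium and taken on day 7 of differentiation, so every group shares strain, culture and age in culture. The CEBPB, JUNB and IRF1 groups were cells given 100 ng/ml IFNg and 10 ng/ml IL4 together for 4 h, cells given 100 ng/ml IFNg alone for 4 h, and cells given no treatment. STAT6 was profiled after 2 h of IFNg+IL4 and after 2 h of IL4, and MYC after 2 h and 4 h of each of these and without treatment. With 1 library in each group no test between states was possible, and the intervals given below cover counting error only, treating peaks as independent. The depth of the libraries is unknown here.

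CEBPB is a basic leucine zipper factor that binds DNA as a dimer. Its homodimers favour the palindrome TTGCGCAA, and dimers with the ATF factors favour a composite of a C/EBP and a CRE part such as TGATGCAA. In macrophages it is known as a partner of PU.1 at enhancers and as a regulator of inflammatory and IL4-induced genes. IFNg induces IRF1, and IL4 acts through STAT6. JUNB is a member of AP-1, another basic leucine zipper family, and MYC binds E-boxes.

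The sequences that follow show what lay under the strongest 3-state sites that fell in promoters. They are the 8 members with the highest mean rank percentile over the 3 CEBPB lists among those whose summit lay in a RefSeq promoter window of GRCm38.p6, which runs from 250 bases before to 50 bases after a gene start. Each holds the bases within 50 of the IFNg summit that lie in that window, on the strand of the gene, and capitals mark matches to the C/EBP motif TTGCNNAA and, in Trem2, also to the AP-1 motif TGANTCA.
Dclre1c: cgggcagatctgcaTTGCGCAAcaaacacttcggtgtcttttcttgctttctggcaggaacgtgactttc
Smad6: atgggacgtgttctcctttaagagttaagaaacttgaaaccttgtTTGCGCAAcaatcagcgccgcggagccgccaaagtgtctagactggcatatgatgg
Prmt3: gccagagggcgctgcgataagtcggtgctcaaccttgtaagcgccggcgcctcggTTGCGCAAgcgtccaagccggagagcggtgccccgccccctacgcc
Rpia: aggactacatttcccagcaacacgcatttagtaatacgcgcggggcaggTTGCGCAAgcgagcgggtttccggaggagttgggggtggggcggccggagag
Mpc2: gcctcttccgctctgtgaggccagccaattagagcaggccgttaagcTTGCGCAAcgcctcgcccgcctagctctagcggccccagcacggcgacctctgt
Clec12a: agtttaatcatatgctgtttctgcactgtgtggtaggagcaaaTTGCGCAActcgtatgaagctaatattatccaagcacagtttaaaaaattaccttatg
Ikzf5: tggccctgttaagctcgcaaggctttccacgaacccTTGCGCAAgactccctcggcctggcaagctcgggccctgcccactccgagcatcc
Trem2: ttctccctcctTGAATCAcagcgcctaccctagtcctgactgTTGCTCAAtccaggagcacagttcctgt

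The first 7 of these hold the full palindrome TTGCGCAA. Trem2 holds TTGCTCAA and, beside it, TGAATCA, which matches TGANTCA because N stands for any base. They lie at chr2:3423881-3423950 (Dclre1c, + strand), chr9:64022043-64022143 (Smad6, - strand), chr7:49778244-49778344 (Prmt3, + strand) and chr6:70792169-70792269 (Rpia, - strand). The other 4 lie at chr1:165461021-165461121 (Mpc2, + strand), chr6:129350061-129350161 (Clec12a, + strand), chr7:131410638-131410728 (Ikzf5, - strand) and chr17:48346381-48346450 (Trem2, + strand). Dclre1c encodes the Artemis nuclease of DNA end joining, Smad6 an inhibitor of BMP signalling, Prmt3 an arginine methyltransferase and Rpia an enzyme of the pentose phosphate pathway. Mpc2 encodes a subunit of the mitochondrial pyruvate carrier, Clec12a an inhibitory myeloid lectin receptor, Ikzf5 a zinc finger factor of the Ikaros family and Trem2 a lipid-sensing receptor of macrophages. No JUNB list had a peak at the Smad6, Prmt3, Rpia, Mpc2 or Ikzf5 site, whereas all 3 JUNB lists had one at Dclre1c and Clec12a.

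The motif was common under the promoter members as a whole. In all, 248 of the 4210 members had their summit in a promoter window, in 276 of 32817 windows. The C/EBP motif TTGCNNAA, searched on both strands, was in 46.7% of windows with the summit of a 3-state site (129 of 276, 40.7 to 52.8%), in 24.9% of windows with another CEBPB IFNg summit and in 10.8% of all windows. The palindrome TTGCGCAA, every match of which is also a TTGCNNAA match, was in 10.1% of windows with a 3-state summit, in 2.29% of those with another summit and in 0.183% of all windows. The composite TGATGCAA was in 6.52%, 2.53% and 0.896% of the same groups of windows, and 36 of the 294 windows with it also held TTGCNNAA. The C/EBP motif or the composite was present at 131 of the 248 promoter members, at a median of 4 bp from the summit. Counted by window, either motif was in 52.5% of windows with a 3-state summit, 27.3% of those with another summit and 11.6% of all windows. Members were also the stronger peaks, with a median IFNg −log10 p of 104.7 against 16.88 at other IFNg peaks. Motif shares were not compared at like strength, so sharing between states and peak strength cannot be told apart here.

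For motifs of the other factors, the intervals of windows with a 3-state summit and of windows with another summit overlapped. The AP-1 motif TGANTCA was in 8.7% of windows with a 3-state summit, in 9.76% of those with another summit and in 7.81% of all windows. The PU.1 motif GAGGAAGT was in 2.54%, 5.78% and 3.2% of these groups, and the IRF motif GAAANNGAA in 9.78%, 11.1% and 8.55%. The GAS motif TTCNNNGAA, which STAT dimers bind, was in 9.06%, 7.47% and 8.29%. The E-box CACGTG was in 13.4%, 9.28% and 7.15%. A match describes the letters in the window and is not a measured binding site.

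**Figure D1:**
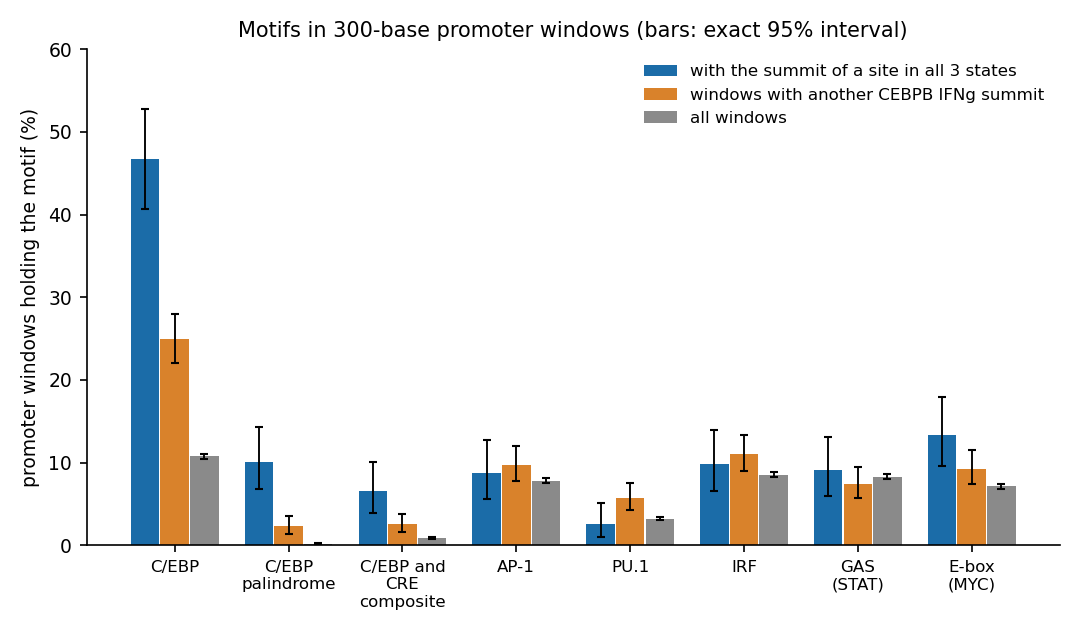
Share of promoter windows holding each of 8 motifs on either strand (y axis, %), for windows with the summit of a 3-state site, windows with another CEBPB IFNg summit and all windows; error bars are exact 95% intervals. The C/EBP motif stands at 46.7%, 24.9% and 10.8% in these groups, while the intervals of the first 2 groups overlap for AP-1, PU.1, IRF, GAS and the E-box.

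Sharing between states was nested. Of the untreated CEBPB peaks, 5532 of 5540 (99.9%) overlapped an IFNg peak, as did 6118 of 6278 IFNg+IL4 peaks (97.5%). The 3-state sites took up 67.8% of the IFNg+IL4 list (4254 peaks) and 76.4% of the untreated list (4235 peaks). The other 17289 IFNg peaks were 1859 found also in IFNg+IL4 but not untreated cells, 1297 found also in untreated but not IFNg+IL4 cells, and 14133 found in the IFNg list alone. No member was included for a few bases only: the smallest overlaps among members were 93, 123 and 130 bp. Of the 3156 non-members with a peak in 1 other state, the nearest lay 133, 162 and 179 bp from the peak they missed. Peaks found in the IFNg list alone were not measured in this way. Summits at a 3-state site nearly coincided, with a median distance of 10 bp between IFNg+IL4 and IFNg and of 9 bp between untreated and IFNg, and 70.4% of members had both distances at 25 bp or less. The IFNg peak was wider than the IFNg+IL4 peak at 99.1% of members and wider than the untreated peak at 99.9%.

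Strength was part of what the overlap chose, so it is given as a description. The authors' MACS2 −log10 p, the peak's own value within its list, had a median of 104.7 at members and 16.88 at the other peaks of the IFNg list. In the IFNg+IL4 list the medians were 23.06 at members and 12.4 at other peaks, and in the untreated list 24.81 and 12.92. Fold enrichment over background, also the authors', had medians of 24.28 at members and 7.571 at other IFNg peaks. Of the 100 strongest peaks, 100 were members or overlapped one in the IFNg+IL4 list, 99 in the IFNg list and 100 in the untreated list. Members kept a similar order among themselves: Spearman's rho of −log10 p over the 4210 sites was 0.802 between IFNg+IL4 and IFNg, 0.798 between IFNg and untreated and 0.693 between IFNg+IL4 and untreated, as a description over sites that share 3 libraries. Of the 421 members in the strongest 10% of the members by each list, 253 were the same sites in all 3.

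**Figure D2:**
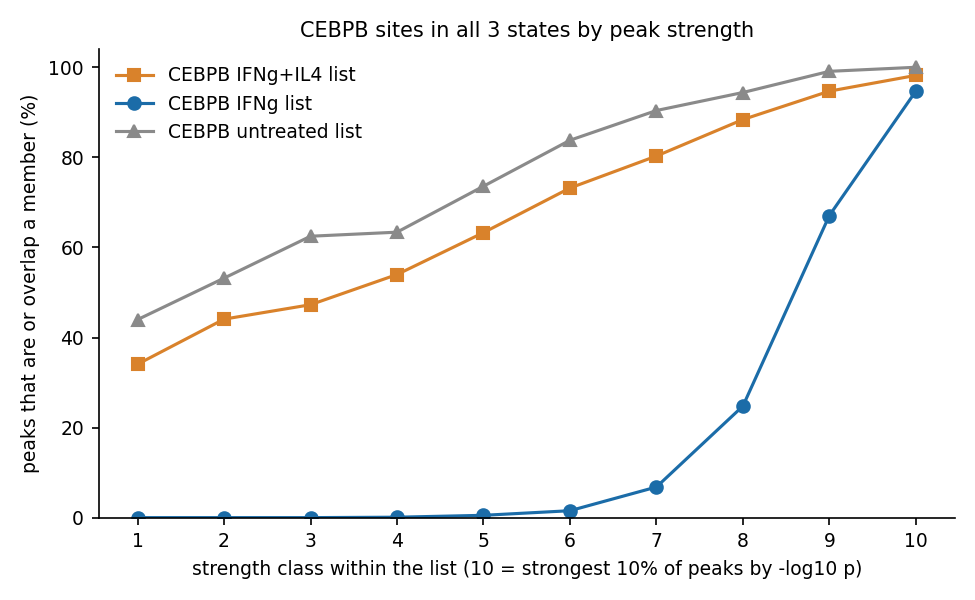
Share of peaks that are or overlap a 3-state site (y axis, %) in 10 strength classes of each CEBPB list, ranked by −log10 p from weakest (1) to strongest (10). In the IFNg list the share is 94.7% in the strongest class and 1.58% in class 6; in the weakest class it is 34.1% in the IFNg+IL4 list and 44.0% in the untreated list.

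The site at Cotl1, which encodes an actin-binding protein, ranked 1st in the IFNg+IL4 list, 4th in the IFNg list and 1st in the untreated list (chr8:119840297-119841089). Its −log10 p was 226.0 in IFNg+IL4, 339.5 in IFNg and 190.1 in untreated cells. The site in H2aj, a histone H2A variant gene, had 185.4, 355.4 and 180.7 in the same order of states and was the strongest IFNg peak. A site 69.69 kb from Cebpb itself had 183.1 in IFNg+IL4, 337.9 in IFNg and 162.2 in untreated cells, and one 28.63 kb from Ccl2, the monocyte chemokine gene, had 188.7, 319.6 and 149.3. The others of the 10 highest by mean percentile lay at Rarg (retinoic acid receptor gamma), Htra1 (a serine protease), Emilin2 (an extracellular glycoprotein), Ssh2 (a cofilin phosphatase), Dclre1c and Rad23b (a DNA repair factor). All 10 were among the 31 strongest peaks of every CEBPB list.

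Some members stood far apart between lists, read as percentiles of −log10 p within each list; these lists differ in length, so a difference in percentile is not a change in binding. The members with the largest excess in IFNg over untreated had as nearest genes Prkcq, Fbxl5, Hmbox1, Nod1 and Spata13. The Nod1 site, in the gene of a sensor of bacterial peptidoglycan, stood at percentile 91.28 in IFNg and 4.404 in untreated cells. Those highest in untreated relative to IFNg stood closer together. The widest apart of them, nearest to Enpp1, was at percentile 9.14 in IFNg and 22.71 in untreated cells. The others in this direction were nearest to Gcfc2, Mad1l1, Serpinb2 and Nrg4. The Gcfc2 site stood at percentile 68.62 in IFNg and 80.83 in untreated cells. Between IFNg+IL4 and IFNg, the largest excess in IFNg+IL4 was at the sites nearest to Il1rl2, Socs5, Adcy9, Nrf1 and Arg1. The site near Il1rl2, which encodes the IL-36 receptor, stood at percentile 95.99 in IFNg+IL4 and 52.06 in IFNg. The site 2.874 kb from Arg1, the arginase gene that IL4 induces, stood at 73.97 in IFNg+IL4 and 51.29 in IFNg. The lowest in IFNg+IL4 relative to IFNg were nearest to Rnf149, Map2k6, Klhl6, Fam241a and Rhoq. The Rnf149 site stood at percentile 0.446 in IFNg+IL4 and 89.76 in IFNg.

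Over all strengths, each JUNB list overlapped a larger share of the 3-state sites than of other IFNg peaks. Within the strongest 10% of the IFNg list this order turned for JUNB IFNg and JUNB IFNg+IL4, with values given further on. For JUNB IFNg it was also turned in strength classes 7, 8 and 9, where the others include sites shared by IFNg and IFNg+IL4 only. Members were wider as well, with a median IFNg peak of 467 bp against 249 bp at other IFNg peaks. Shares were not taken at like width. The untreated JUNB list overlapped 41.8% of members (1761 of 4210, 40.3 to 43.3%) and 18.2% of other IFNg peaks, against a background of 22.8% over all IFNg peaks. The JUNB IFNg list overlapped 30.9% of members and 17.3% of other peaks (background 19.9%), and the JUNB IFNg+IL4 list 21.5% of members and 12.8% of other peaks (background 14.5%). At sites shared by IFNg and IFNg+IL4 only, the IFNg+IL4, IFNg and untreated JUNB lists overlapped 36.7%, 40.7% and 36.0%, and at sites shared by IFNg and untreated only 3.24%, 7.56% and 18.6%. Any JUNB list reached 46.9% of members and 29.5% of all IFNg peaks. JUNB in all 3 states was found at 18.5% of members and 10.3% of all IFNg peaks, and JUNB in untreated cells only at 14.4% and 8.24%. Where peaks overlapped, the JUNB IFNg summit at a member lay a median of 38 bp from the CEBPB IFNg summit. At sites shared by IFNg and IFNg+IL4 only this median was 35 bp. Unlike the other lists, whose lowest −log10 q was 2 or more, the untreated JUNB list held peaks down to 0.0. With only its peaks at a −log10 q of at least 2, it overlapped 29.2% of members and 11.9% of other peaks, and with peaks of every list under a −log10 q of 5 dropped, 19.5% and 7.48%.

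Both IRF1 lists from treated cells overlapped a smaller share of members than of other IFNg peaks, with intervals that were apart only for IFNg. The IRF1 IFNg list overlapped 3.59% of members (151 of 4210, 3.05 to 4.19%) and 5.6% of other IFNg peaks (background 5.2%). The IRF1 IFNg+IL4 list overlapped 9.93% of members (9.04 to 10.9%) and 10.6% of other peaks (10.1 to 11%), whose intervals overlap, against a background of 10.4%. The sites shared by IFNg and IFNg+IL4 but missing from the untreated list had 14.2% and 28.5% for the same pair of lists, and those shared by IFNg and untreated only had 0.0771% and 0.771%. Untreated IRF1, with 244 peaks in all, overlapped 7 members (0.166%, 0.0669 to 0.342%) and 0.133% of other peaks (0.0843 to 0.2%). These intervals overlap, and the background was 0.14%.

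The STAT6 lists overlapped the largest share of members of the 13 lists, and they were also the longest, with 21481 (IFNg+IL4) and 24927 (IL4) peaks, while the JUNB lists held 5556 to 9229. As a share of their own peaks, 9.65% and 9.47% of the STAT6 lists and 16.7% to 19.3% of the JUNB lists lay on members. The STAT6 IFNg+IL4 list overlapped 48.0% of members and 27.2% of other peaks (background 31.3%), and the STAT6 IL4 list 54.7% of members and 28.2% of other peaks (background 33.4%). Both STAT6 lists together were present at 44.2% of members and 26.5% of all IFNg peaks. Sites shared by IFNg and IFNg+IL4 only had STAT6 more often still, at 64.6% for the IFNg+IL4 list and 59.8% for the IL4 list, and sites shared by IFNg and untreated only less often, at 13.3% and 21.5%. MYC peaks after 2 h of IL4 overlapped 20.5% of members and 10.2% of other peaks (background 12.2%), and after 4 h of IL4 14.4% of members and 7.08% of other peaks (background 8.51%). With IFNg+IL4, MYC overlapped 4.11% of members at 2 h (background 2.47%) and 4.94% at 4 h (background 3.05%). Untreated MYC overlapped 27 members (0.641%; background 0.33%). Of all members, 27.3% were overlapped by none of the 13 lists, against 53.7% of other IFNg peaks. All 4 factors overlapped 2.92% of members, 4.84% of sites shared by IFNg and IFNg+IL4 only and 1.54% of all IFNg peaks. The members overlapped by the most lists, 11 of 13, lay in Eif4a1 (a translation initiation helicase, beside Cd68) and 0.058 kb from Ppp1r15b, a phosphatase subunit of the stress response. A further 11 members were overlapped by 10 lists each, those at Arid5a, Sestd1 and Ppt1 among them.

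**Figure D3:**
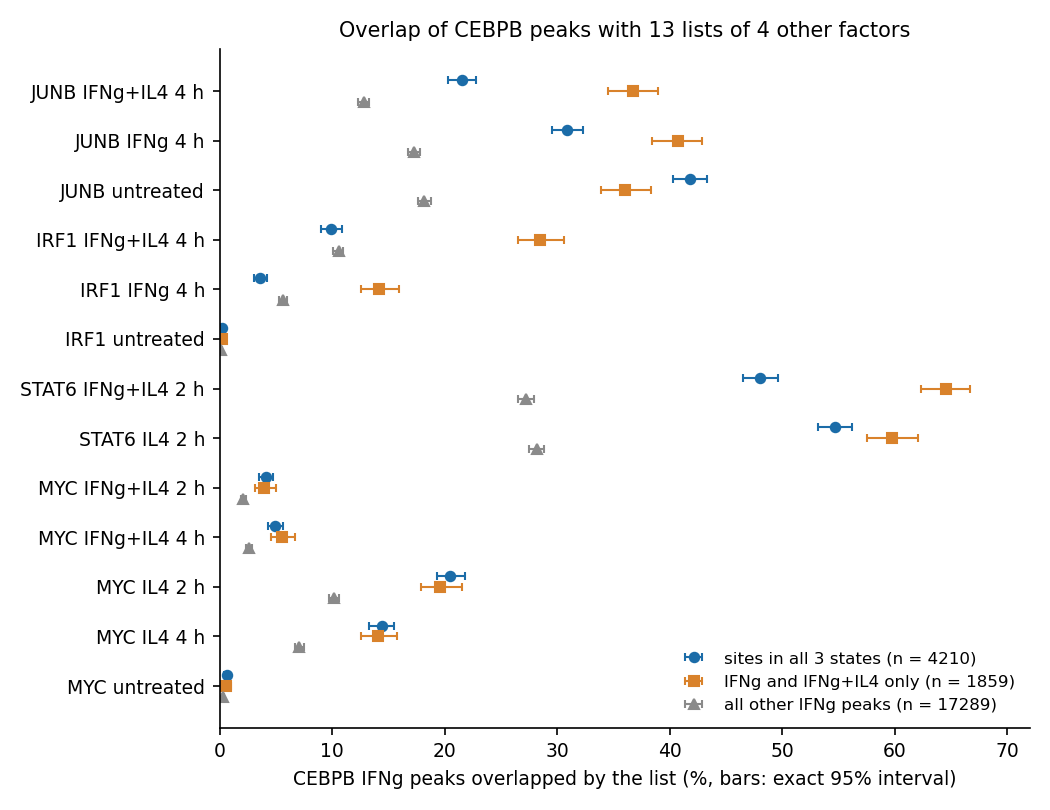
Share of CEBPB IFNg peaks overlapped by each of 13 peak lists (x axis, %), for the 4210 sites in all 3 states, the 1859 sites in IFNg and IFNg+IL4 only and all 17289 other IFNg peaks, which include the 1859; bars are exact 95% intervals. Untreated JUNB stands at 41.8% in 3-state sites and 36.0% in the IFNg and IFNg+IL4 only sites, whereas both IRF1 lists from treated cells stand higher in the IFNg and IFNg+IL4 only sites.

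To compare peaks of like strength, the shares were also taken within the strongest 10% of the IFNg list, which held 2036 members and 113 others, 97 of them shared with IFNg+IL4 only. There the order for JUNB IFNg was reversed, with 38.8% of members (36.7 to 41.0%) and 56.6% of others (47.0 to 65.9%), and that for JUNB IFNg+IL4 with 25.1% and 38.9%. Untreated JUNB kept its order, with 48.6% of members and 20.4% of others. IRF1 IFNg overlapped 5.5% of members and 42.5% of others, and IRF1 IFNg+IL4 12.6% and 55.8%. STAT6 IL4 overlapped 61.2% of members and 34.5% of others, while STAT6 IFNg+IL4 overlapped 54.1% and 58.4%, whose intervals overlap. MYC at 2 h of IL4 overlapped 22.2% of members and 4.42% of others. In the second strongest 10%, with 1442 members and 708 others, untreated JUNB overlapped 36.5% of members and 21.5% of others, and IRF1 IFNg 2.22% and 14.1%. These 2 comparisons kept their order in both classes, and that of JUNB IFNg did not keep the order seen over all peaks in either. In the second it had 26.1% of members (23.8 to 28.4%) and 29.5% of others (26.2 to 33.0%), whose intervals overlap. In class 8, JUNB IFNg overlapped 18.6% of members (15.4 to 22.1%) and 23.7% of others (21.7 to 25.9%). In class 7 the shares were 18.4% and 20.8%. In class 6, with only 34 members, they were 17.6% and 15.5%. In class 9, 352 of the 708 others were sites shared by IFNg and IFNg+IL4 only, of which JUNB IFNg overlapped 38.9%. In class 8 these were 489 of 1617, overlapped at 40.9%, and in class 7 they were 385 of 2003, at 41.0%. Members were not compared with the remaining others. JUNB IFNg+IL4 overlapped 18.3% of members and 17.2% of others in class 9, and 15.9% and 15.3% in class 8, with overlapping intervals.

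**Figure D4:**
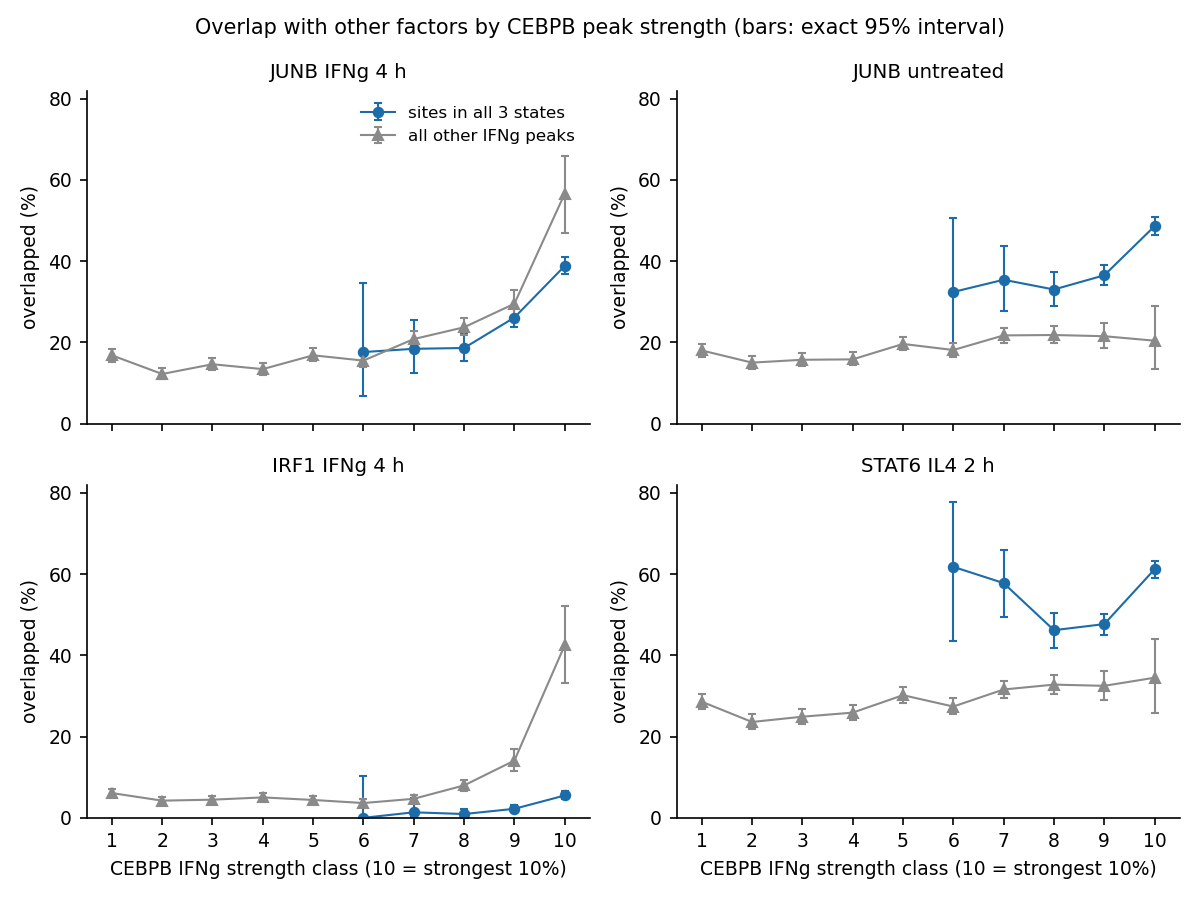
Share overlapped by JUNB IFNg, untreated JUNB, IRF1 IFNg and STAT6 IL4 peaks (y axes, %) in each CEBPB IFNg strength class (x axes), for sites in all 3 states and all other IFNg peaks; groups under 20 peaks are not drawn and bars are exact 95% intervals. In class 10, untreated JUNB is at 48.6% of 3-state sites and 20.4% of others, and IRF1 IFNg at 5.5% and 42.5%.

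Members made up between 17.5% (chromosome 16) and 22.6% (chromosome 2) of the IFNg peaks of each autosome, and 14.6% of those on X (75 of 515, 11.6 to 17.9%). Summits within 1 kb of a gene start made up 12.1% of members (497 of 4094 on chromosomes of the promoter table, 11.2 to 13.2%), 10.4% of other peaks and 10.7% of all IFNg peaks; sites shared by IFNg and untreated only had 6.46%. A gene span held 52.9% of members and 54.1% of other peaks, and 21.8% of members and 22.5% of other peaks lay over 20 kb from any gene span. Another member lay within 20 kb of 27.5% of members. This share was not taken for other IFNg peaks, so it does not tell whether members cluster.

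Of the 10 gene lists, that of macrophage identity had the highest share of genes with a 3-state site within 20 kb. Within 50 kb the lipid and lysosome list was higher, with 19 of 20 genes against 22 of 25 macrophage identity genes. A member lay within 20 kb of 3739 of 21887 protein-coding genes (17.1%), and any CEBPB IFNg peak within 20 kb of 48.2%. Of 25 macrophage identity genes 20 had a member, of 25 inflammatory and AP-1 genes 17, of 20 lipid and lysosome genes 12 and of 25 IL4 response genes 13. By contrast 3 of 25 marker genes of other blood and tissue cell types had one (Flt3, Cd79a and Ms4a1), 2 of 15 liver and fat genes (Adipoq and Apoa1) and 1 of 15 genes of other organs (Mbp). Within 50 kb the other cell types had 28.0%, near the 26.9% of all protein-coding genes. Granule and acute phase genes had a member at 3 of 15 (Csf3r, Mmp8 and Il1rn), and the C/EBP family at 1 of 6, Ddit3. Per pair of a gene and an IFNg peak within 20 kb, the lists stood closer. Members made up 33.3% of pairs for macrophage identity, 33.8% for lipid, 30.6% for inflammatory and 26.7% for IL4 response genes. The share was 28.6% for liver and fat (7 pairs), 22.2% for other cell types (18), 14.3% for other organs (14) and 16.1% for granule genes. For the C/EBP family it was 20.0%, and over all genes 19.9%. Peak lists hold no expression values, so the macrophage label was checked only through these counts. List genes differ in length, and longer genes take in more peaks.

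Among the macrophage genes, Mpeg1 (perforin-2), Itgam (CD11b), Ctsb (cathepsin B), Mertk (a receptor for apoptotic cells), Cx3cr1 (the fractalkine receptor) and Msr1 (a scavenger receptor) had 3 members each. The strongest near Mpeg1 had a −log10 p of 120.0 in IFNg+IL4, 309.0 in IFNg and 174.0 in untreated cells and ranked 4th in the untreated list. Spi1, the gene of PU.1, had 2 members, the stronger at 130.0, 292.0 and 103.0 in the same order of states, and none of the 13 other lists overlapped it. Lyz2 (lysozyme), Cd68, Runx1, Adgre1 (F4/80) and Ctsd had 2 each. The 5 genes of the list with no member were Csf1r, Irf8, Maf, Marco and Zeb2, of which Zeb2 had 10 IFNg peaks and Csf1r 3. Cd36, the oxidised lipid receptor, had 5, the most of any listed gene, and Npc2 3; Abcg1, Lgals3 and Ctsz had 2 each.

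In the inflammatory list, Atf3, Il1b, Fos and Nfkbia, the IκBα gene, had 3 members each. The strongest at Atf3, a stress-induced repressor, had 124.0 in IFNg+IL4, 199.0 in IFNg and 69.3 in untreated cells. Ccl3 and Ccl4 shared their strongest member, which had 30.4, 176.0 and 56.6. In the IL4 list, Il4ra, the receptor subunit, Bcl6 and Pparg had 3 each and Arg1 and Flt1 2. The strongest near Arg1 had 89.8 in IFNg+IL4, 229.0 in IFNg and 89.8 in untreated cells.

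Of 30 IFNg response genes, 11 had a member within 20 kb (36.7%, against 17.1% of all protein-coding genes) and 29 had an IFNg peak (96.7%, against 48.2%). Per peak the order was the other way: 11.2% of their gene and peak pairs were members against 19.9% over all genes. Each of the 11 had a single member, among them Cd40, Cxcl9, Cxcl10, Gbp2, Gbp3, Gbp5, Nlrc5, Nos2 and Rsad2, genes named after their values were seen. Cxcl10 had 9 IFNg peaks, of which 1 was a member, and Irf1 had 7 and Ccl5 6, of which none was. The genes with most members were Lpp, Nsmce2 and Vps13d, with 8 each, then Asph, Irf2 and Rin2, with 7 each. These 6 genes are long, between 108.0 kb (Irf2) and 599.0 kb (Lpp).

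**Figure D5:**
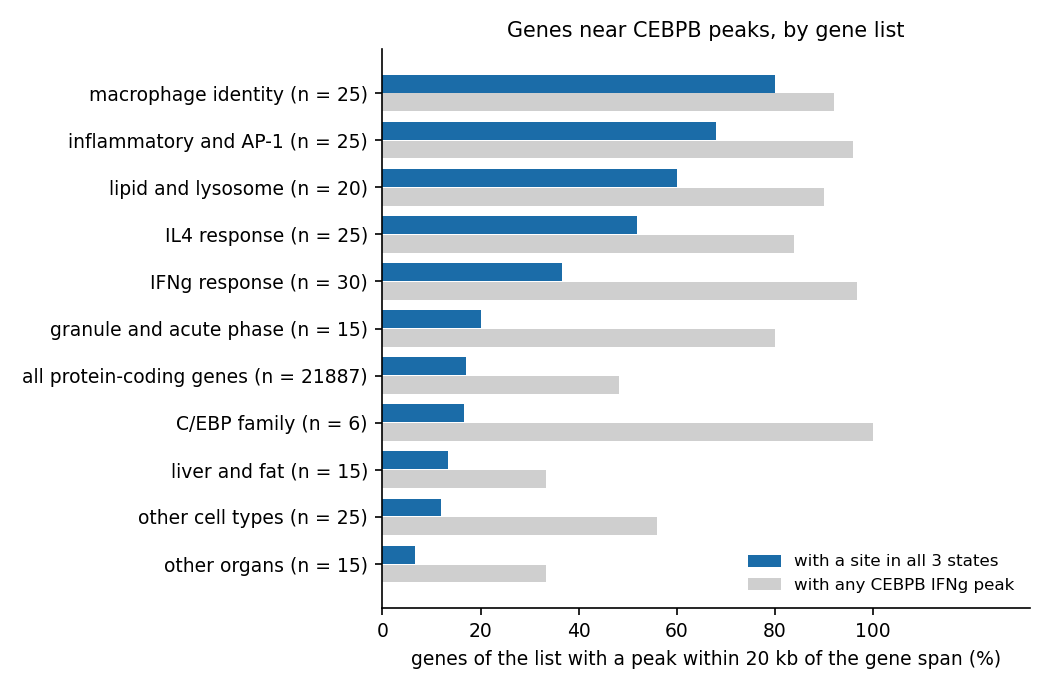
Share of genes in each list with a 3-state site (blue) and with any CEBPB IFNg peak (grey) within 20 kb of the gene span (x axis, %). Macrophage identity genes stand at 80.0% and 92.0%, IFNg response genes at 36.7% and 96.7%, and all protein-coding genes at 17.1% and 48.2%.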

How the data were processed

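The deposited files were narrowPeak lists from 17 ChIP-seq libraries, 1 per group and 1 input. Bowtie2 2.2.6 and MACS2 2.1.0.20150731 and the builds mm10 and GRCm38 are named in the submitters' processing notes. The authors' score column holds 10 times the −log10 q (10 times the −log10 p in the untreated JUNB list), as found from the values. The authors' fold enrichment (a ratio over background), −log10 p and −log10 q and the summit offset were used as deposited, to rank and describe peaks within 1 list. Read depth is not in the lists.

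Peaks on autosomes, X and Y were kept, and peaks overlapping one of the 128 input peaks were removed, which took no CEBPB peak. Overlap means at least 1 bp. A percentile is the peak's rank by −log10 p, counted from the weakest, as a share of the list, with tied peaks given their mean rank. Shares have exact Clopper-Pearson 95% intervals. Gene spans and promoters are RefSeq GRCm38.p6; the promoter table used here holds no window on chromosome 18 and lacks some genes. Gene lists were matched by symbol, with all members found.

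Sites, gene lists and alternatives were chosen with earlier results of these data known. Named genes were up to 30 listed genes with most members within 20 kb, the 10 members with the highest mean percentile, the 5 differing most in each direction between states, the 5 genes with most members and the 5 members overlapped by most lists. A tie for the fifth gene was kept; among members overlapped by equally many lists, 5 were taken in all. No comparison used replicates, and the scripts ran in Python 3.11.15 with pandas 2.3.3, numpy 2.4.6 and SciPy 1.17.1.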

Additional observations from a re-analysis of the deposited data

How the results depend on the processing

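No paired analysis was possible because each group holds 1 library, and for the same reason no library could be left out. The count of 4210 3-state sites stayed between 3713 and 4227 when summits had to lie within 100 bp, when peaks with a −log10 q under 5 were dropped, when sites were counted in the untreated or the IFNg+IL4 list, when input peaks were kept and when each list was cut to its 5540 strongest peaks. It was 2389 with a reciprocal overlap of 50%; the IFNg peaks are wider than those of the other states. The shares of members with another factor, in the order JUNB IFNg+IL4, JUNB IFNg, untreated JUNB, IRF1 IFNg+IL4, IRF1 IFNg, STAT6 IFNg+IL4, STAT6 IL4 and MYC IL4 2 h, were 11.2%, 16.8%, 26.8%, 3.37%, 0.998%, 28.7%, 33.3% and 7.91% with a reciprocal overlap of 50%. With summits within 100 bp they were 17.6%, 26.6%, 35.6%, 6.37%, 1.97%, 38.6%, 44.5% and 13.3%. With peaks under a −log10 q of 5 dropped they were 20.1%, 30.0%, 19.5%, 8.45%, 3.25%, 45.5%, 52.5% and 17.9%. In none of these 3 settings did members and other peaks change order for any of the 8 lists. The differences could be small, however. With reciprocal overlap, other peaks had 10.1%, 13.6%, 13.7%, 6.32%, 3.34%, 17.8%, 18.2% and 5.11% in the same order of lists. JUNB IFNg+IL4 thus stood at 11.2% of members and 10.1% of other peaks, and JUNB IFNg at 16.8% and 13.6%. In the strongest 10% of the IFNg list the shares were 25.1%, 38.8%, 48.6%, 12.6%, 5.5%, 54.1%, 61.2% and 22.2%. The order turned for JUNB IFNg+IL4, JUNB IFNg and STAT6 IFNg+IL4, with 97 of the 113 others shared with IFNg+IL4 only. The cause was not tested. The second strongest 10% was an alternative chosen after seeing the data, as was the q cut on untreated JUNB. There the shares of members were 18.3%, 26.1%, 36.5%, 8.67%, 2.22%, 42.4%, 47.7% and 18.8%. Those of other peaks were 17.2%, 29.5%, 21.5%, 23.0%, 14.1%, 37.0%, 32.5% and 9.04%. The order turned for JUNB IFNg. Its intervals overlapped, as did those of JUNB IFNg+IL4 and of STAT6 IFNg+IL4. Untreated JUNB without peaks under a −log10 q of 2 gave 29.2%. Gene starts within 5 kb held 26.4% of members and 25% of other peaks. Genes with a member numbered 2444 within 5 kb, 5883 within 50 kb and 2416 with members by reciprocal overlap. Within 50 kb, 3 C/EBP family, 5 granule, 19 lipid, 7 other cell type and 3 other organ genes had one. Within 5 kb, 7 IFNg response genes and 1 liver and fat gene did. With reciprocal overlap, 9 inflammatory, 5 IFNg response, 8 IL4 response, 0 liver and fat and 0 other organ genes did. Windows that any base of a member touched held the C/EBP motif in 34.9% of cases. No distal summit could be searched for motifs, and unknown depth limits what a missing peak means.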
